A study of Mus musculus with 39 samples.

Results

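Of 39 mouse mammary tumours with 1 RNAseq library each, 5 showed raised expression along chromosome 12. These were WT.04, WT.41, WT.42, WT.59 and WT.60, and they were set against the other 24 tumours of PCA group 1/2 and, separately, against the 4 of those 24 that shared their genotype (WT.01, WT.02, WT.39 and WT.40). PCA group 1/2 and the Lyn expression groups are classes that the authors drew from the same libraries. The 5 tumours were selected on their chromosome 12 values in these libraries, by name. The measure behind the choice was the chromosome 12 shift: each gene's log2 CPM (counts scaled to a common library size with the TMM factors of edgeR) minus its median over the 39 tumours, then the median over 660 chromosome 12 genes. Because that measure formed the set, every chromosome 12 value below, counts from the gene-by-gene fit included, is a description that supports nothing, and results of tests are read for the other chromosomes only.

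All groups were adenocarcinomas of no special type from adult female mice that carried BlgCre, Brca1flox/flox and p53 +/-. BlgCre is Cre recombinase under the beta-lactoglobulin promoter, which is active in mammary luminal epithelium, and it deletes the floxed Brca1 and Lyn alleles there, although the study found recombination of floxed Lyn incomplete in some tumours. The 5 raised tumours were all Lynwt/wt and came from 4 mice, since WT.42 and WT.59 arose in the same animal. WT.04 arose in the mouse that also gave WT.02. The other 24 tumours came from 21 mice and comprised 4 Lynwt/wt, 8 Lynfl/wt and 12 Lynfl/fl. Raised chromosome 12 expression and the Lynwt/wt genotype are therefore partly confounded in the comparison with 24, and not in the comparison with 4. Going by the prefix of the database IDs, WT.04 was autopsied in the earlier of the study's calendar years and the other 4 in the later one. Both years occur among the 24. WT.04 and WT.60 were in the Lyn-low group, WT.41 and WT.59 in the Lyn-high group, and WT.42 in neither. Each library came from a piece of tumour, so fewer cells of a type and less RNA per cell cannot be told apart. Libraries held 50490044 to 83122719 counts over 53715 genes (median 62409143), and the raised ones lay within that range.

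A cell with an extra copy of a chromosome transcribes most of its genes above the level of a cell with the usual number, gene by gene and roughly in proportion to dosage, although single genes can depart from this through feedback or tissue-specific regulation. Tumours that lose BRCA1, a protein needed for repair of DNA breaks by homologous recombination, are known for gains and losses of chromosome segments. Expression alone does not measure copy number, and DNA was not analysed here.

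WT.42 had the highest chromosome 12 shift, 0.98 on the log2 scale, followed by WT.60 at 0.85, WT.04 at 0.55, WT.41 at 0.50 and WT.59 at 0.48. The cut for selection was 0.5, so WT.41, at 0.502, sat just inside it, and WT.59, at 0.476, just outside, and 4 of the 5 passed as the shift was computed here. The next tumours were HOM.37 of PCA group 1/2 at 0.342 and HET.30 of PCA group 3/4 at 0.305. The mean was 0.67 ± 0.23 (SD, n = 5) in the raised tumours, against -0.06 ± 0.14 in the other 24 and -0.08 ± 0.02 in the 4 Lynwt/wt ones. These means lay 0.73 apart (1.66-fold) and 0.75 apart (1.69-fold). WT.42 and WT.60 were the highest of the set, and the other 3 lay close together.

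**Figure D1:**
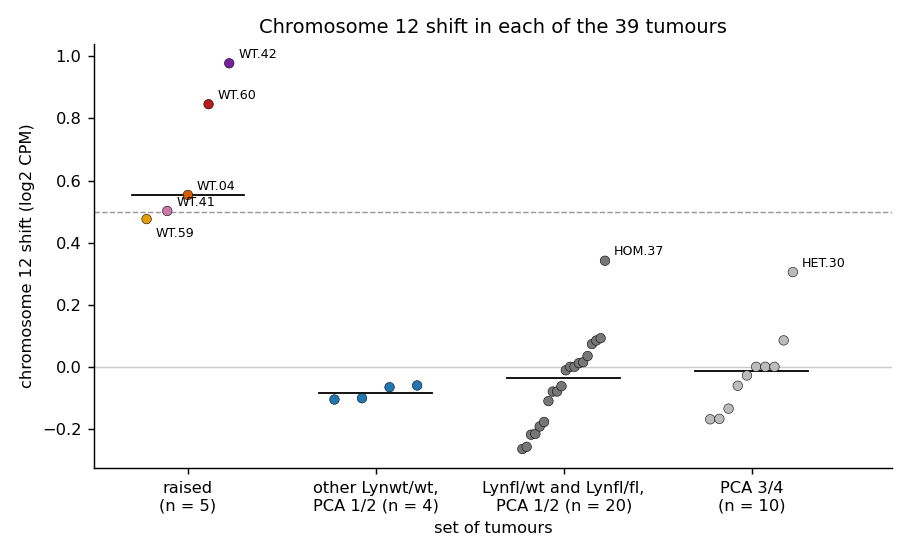
Chromosome 12 shift of each of the 39 tumours (vertical axis, log2 CPM, the median over 660 genes of the difference from the median tumour), by set of tumours on the horizontal axis; horizontal bars are set medians and the dashed line is the cut of 0.5. The 5 raised tumours lie between 0.476 and 0.978, above HOM.37 at 0.342, and the 4 other Lynwt/wt tumours lie between -0.105 and -0.060.

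The separation depended on the summary over genes. With the mean in place of the median the shift was 0.70 in WT.42, 0.81 in WT.60, 0.26 in WT.04, 0.38 in WT.41 and 0.36 in WT.59, against at most 0.40 in the other tumours, so WT.04, WT.41 and WT.59 no longer lay above all of them.

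The shift was carried by most genes rather than by a few. In WT.60, 84.4% of the chromosome 12 genes lay above the median tumour, in WT.42 76.7%, in WT.04 70.6%, and in WT.41 and WT.59 69.7% each. Over the rest of the genome the same share was 48.6% in WT.60, 45.2% in WT.42, 46.8% in WT.04, 46.2% in WT.41 and 49.4% in WT.59. By this count HOM.37 passed WT.04, WT.41 and WT.59, with 72.9% of its chromosome 12 genes above the median tumour.

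Along the chromosome, in segments of 10 Mb from the centromere end (GRCm38), all 5 raised tumours were above 0 in 11 of 12 segments. The exception was 40 to 50 Mb, which held 15 measured genes and where WT.59 was at -0.50 and WT.04 at -0.10. Between 60 and 90 Mb, and from 110 Mb to the end, none of the 24 other tumours reached the lowest raised tumour. WT.42 was uneven, with 1.41 at 80 to 90 Mb, 0.59 at 100 to 110 Mb and 1.29 in the last segment. WT.04 was uneven in another way, with 0.82 at 50 to 60 Mb, 0.02 at 30 to 40 Mb and 0.15 in the first segment. WT.60 was the most even, with segment values from 0.61 to 0.93.

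**Figure D2:**
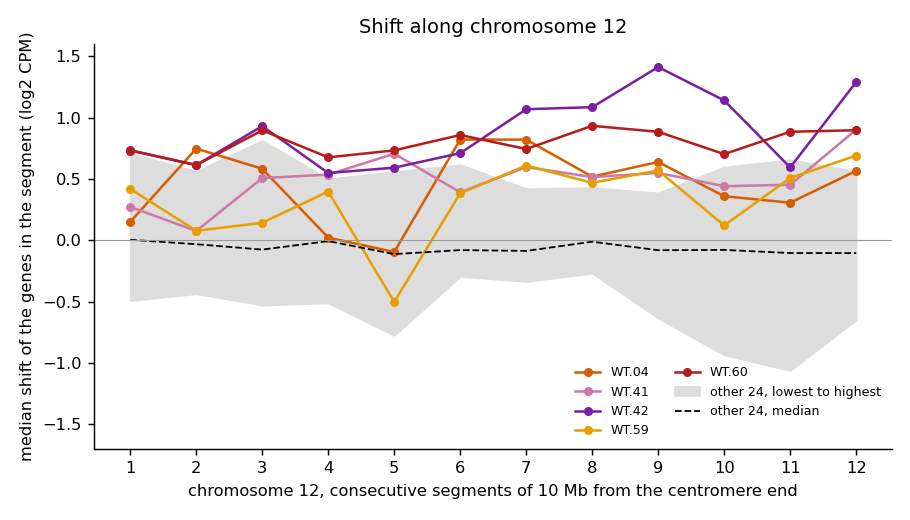
Median shift (vertical axis, log2 CPM against the median tumour) in 12 segments of 10 Mb along chromosome 12 (horizontal axis, numbered from the centromere end), with a line for each raised tumour, the range of the other 24 tumours in grey and their median dashed. The raised tumours leave the grey range in the segments from 60 to 90 Mb and after 110 Mb, and WT.42 peaks at 1.41.

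Outside chromosome 12, shifts of this size were rare. Of 741 values (39 tumours on 19 chromosomes) 2 were above 0.5 and 4 below -0.5, and the range ran from -0.69 to 0.58. Of the 95 such values of the raised tumours 1 was above 0.5, that of chromosome 2 in WT.60 at 0.58. In a two-sided exact permutation test over tumours, none of the 19 other chromosomes differed between the raised tumours and the other 24 after Benjamini-Hochberg adjustment (118755 arrangements, smallest possible p = 8.42e-06). The lowest adjusted p in this exact permutation test was 0.066, shared by chromosomes 2, 8 and 9. The mean shift of chromosome 2 was 0.22 ± 0.23 in the raised tumours and -0.04 ± 0.15 in the other 24, a difference of 0.26 (unadjusted exact permutation p = 0.00348). Chromosome 8 differed by -0.23 (exact permutation p = 0.0104) and chromosome 9 by -0.23 (exact permutation p = 0.00815). With the mean over genes in place of the median, 5 chromosomes passed, so the outcome depended on that choice. Against the 4 Lynwt/wt tumours the lowest adjusted exact permutation p was 0.754, with 126 arrangements and a smallest possible p of 0.00794, with which a single chromosome could not have passed the adjustment over 19.

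**Figure D3:**
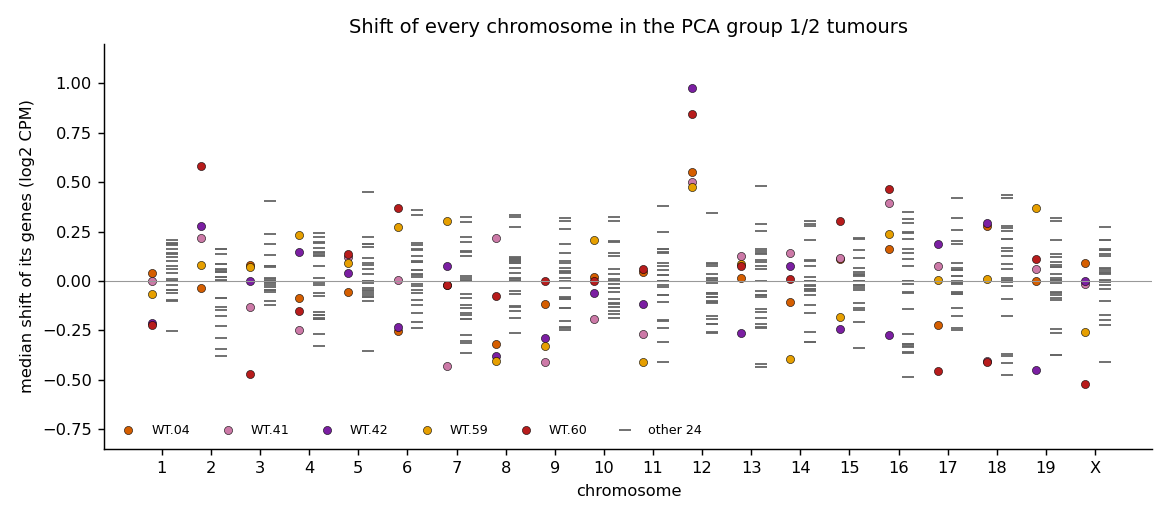
Median shift (vertical axis, log2 CPM against the median tumour) of every chromosome (horizontal axis) in the 5 raised tumours, coloured, and the other 24 tumours of PCA group 1/2, grey. Chromosome 12 of the raised tumours stands at 0.476 to 0.978, and their other chromosomes lie between -0.52 and 0.58.

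Single genes were compared with the quasi-likelihood F test of edgeR and called at a Benjamini-Hochberg adjusted p under 0.05 over all genes with at least a 2-fold change. Against the other 24 tumours, 20322 genes were tested, of which 369 were called higher (1.82%) and 84 lower (0.413%). Chromosome 12, by which the set was chosen, held 139 of the 369 and none of the 84 among its 730 genes in the fit (19% called higher), and nothing is read from these calls. Its median log2 fold change was 0.75 (1.68-fold), with a lower quartile of 0.20 (1.15-fold) and an upper quartile that was 2.14-fold, and 584 of the 730 genes (80%) were positive. Elsewhere the median was -0.03. In all, 34 genes (0.167%) had every raised tumour above every one of the 24, of which 21 were on chromosome 12. Against the 4 Lynwt/wt tumours, which are also among the 24, chromosome 12 had a median log2 fold change of 0.93 (1.91-fold), and 567 of 662 genes were positive.

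The chromosome 12 difference was larger for well expressed genes. Genes averaging under 1 CPM had a median log2 fold change of 0.48 against the 24, those at 1 to 10 CPM 0.62, those at 10 to 100 CPM 0.83 and those over 100 CPM 0.81. The shares that were positive were 66%, 74.1%, 90.6% and 92.6% in the same order. On the other chromosomes the medians were -0.15, -0.18, 0.02 and 0.05 in those bins.

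Of the 3 chromosome 12 genes given as marks of these tumours, Ttc7b and Galc were high and Jdp2 was not. These genes were named with earlier results of these data known, so their levels are a description. Ttc7b, on chromosome 12 at 100300770 to 100520826 (GRCm38), encodes a scaffold of the plasma membrane phosphatidylinositol 4-kinase complex. It had 25.9 CPM in WT.04, 95.7 in WT.41, 26.7 in WT.42, 63.6 in WT.59 and 43.2 in WT.60, against 26.4, 8.04, 17.4 and 24.3 CPM in WT.01, WT.02, WT.39 and WT.40. Over the 24 the lowest, median and highest were 3.30, 10.6 and 26.9 CPM, so WT.04 and WT.42 only reached the top of that range and WT.41 and WT.59 were far above it. The log2 fold change was 2.07 ± 0.33 (SE) against the 24 and 1.44 against the 4. Over 8 measured genes of the complex the median log2 fold change was 0.13, with 6 positive.

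Galc, at 98202294 to 98259459, encodes the lysosomal galactosylceramidase that breaks down galactolipids of myelin. It had 51.9, 87.6, 144, 97.5 and 45.8 CPM in WT.04, WT.41, WT.42, WT.59 and WT.60, against 25.2, 24.4, 31.4 and 31.7 CPM in WT.01, WT.02, WT.39 and WT.40. The 24 ran from 8.44 through a median of 24.3 to 48.1 CPM, so 4 raised tumours were above all of them and WT.60 was just inside their range. Jdp2, at 85599027 to 85639878, encodes a leucine-zipper partner of the AP-1 factors. It had 45.1 CPM in WT.04, 13.7 in WT.41, 30.7 in WT.42, 24.5 in WT.59 and 22.0 in WT.60, against 31.7, 23.2, 21.5 and 24.3 CPM in WT.01, WT.02, WT.39 and WT.40. WT.41 was below the median of the 24 (16.8 CPM) and the others were above it. Jdp2's log2 fold change was 0.57 against the 24 and 0.12 against the 4, below the chromosome's median in both, so it did not mark the set.

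The 10 chromosome 12 genes described next stood first in the fit's ranking on that chromosome, which follows from the choice of tumours, and were Npc2, Atp6v1d, Sptlc2, Inf2, RP23-43G12.1, Galc, Plekhh1, Arel1, Tmem251 and Ddx24. Npc2 encodes a protein that moves cholesterol out of lysosomes. It had 497, 720, 676, 1002 and 444 CPM in WT.04, WT.41, WT.42, WT.59 and WT.60, against 200, 216, 167 and 207 CPM in WT.01, WT.02, WT.39 and WT.40. The highest of the 24 was HOM.37 with 420 CPM, below every raised tumour, and the log2 fold change was 1.54 ± 0.19. Sptlc2, a subunit of the serine palmitoyltransferase that starts sphingolipid synthesis, had 208, 152, 235, 206 and 132 CPM in the raised tumours in the same order, against 62.8, 66.5, 68.3 and 58.5 CPM in the 4. Here too every raised tumour was above all 24, the highest of which reached 131 CPM, next to WT.60.

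Atp6v1d, a subunit of the pump that acidifies lysosomes, had 88.1 CPM in WT.04, 232 in WT.41, 388 in WT.42, 151 in WT.59 and 153 in WT.60, against 43.7 to 68.0 CPM in the 4 Lynwt/wt tumours. WT.04 lay within the range of the 24, whose highest value was 98.2 CPM. The actin-nucleating formin Inf2 was spread widely, with 342, 123, 287, 317 and 90.0 CPM in the raised tumours in that order, against 16.5 to 66.5 CPM in the 4. Arel1, a ubiquitin ligase that limits apoptosis, Tmem251, which the sorting of lysosomal enzymes needs, and RP23-43G12.1, a gene model without a known role, did not overlap between the raised tumours and the 24, with log2 fold changes of 1.13, 1.19 and 1.28. The RNA helicase Ddx24 was at 1.11 and Plekhh1, a gene of the pleckstrin homology family, at 1.95, both overlapping the 24.

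Chromosome 12 genes were then grouped by role. Among 24 kinase, phosphatase and growth signalling genes, 20 were positive, with a median log2 fold change of 0.79, beside 584 of 730 (80%) and 0.75 over the whole chromosome. Akt1, the kinase downstream of phosphatidylinositol 3-kinase, had 700, 885, 601, 763 and 701 CPM in WT.04, WT.41, WT.42, WT.59 and WT.60, against 376, 217, 237 and 337 CPM in WT.01, WT.02, WT.39 and WT.40. The 24 ran from 170 through 292 to 539 CPM, so the sets did not overlap, and the log2 fold change was 1.24 ± 0.18. Ppp2r5c, a regulatory subunit of protein phosphatase 2A, and Mark3, a kinase of microtubule-associated proteins, did not overlap the 24 either, at 1.04 and 1.09.

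**Figure D4:**
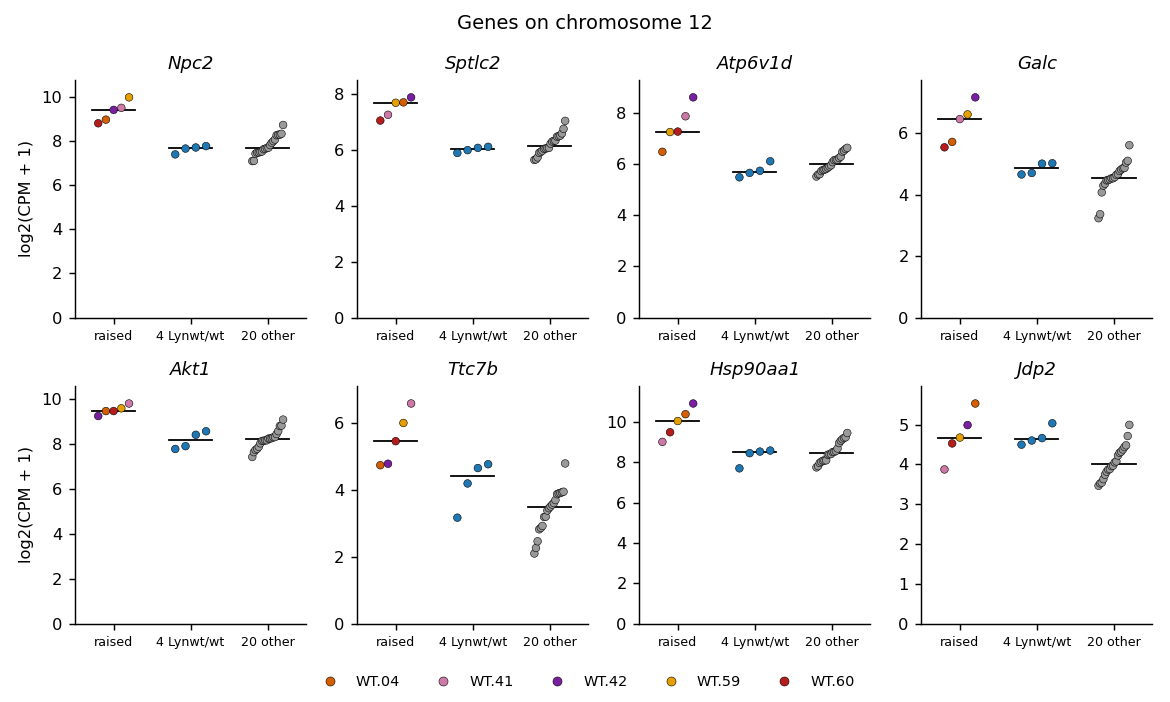
Expression of 8 chromosome 12 genes (vertical axis, log2 of CPM + 1) in the 5 raised tumours, the 4 other Lynwt/wt tumours and the 20 remaining PCA group 1/2 tumours (horizontal axis); points are tumours and black lines are medians. Npc2, Sptlc2 and Akt1 separate the raised tumours from all others, Atp6v1d, Galc, Ttc7b and Hsp90aa1 overlap in part, and in Jdp2 WT.04 alone exceeds the others.

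All 13 measured protein folding and quality control genes of chromosome 12 were positive, with a median log2 fold change of 1.04, beside 80% and 0.75 over the chromosome. Chromosome 12 genes at 10 to 100 CPM were 90.6% positive (median 0.83) and those over 100 CPM 92.6% (median 0.81). The list was not matched to the chromosome by expression level. Hsp90aa1, the stress-inducible cytosolic Hsp90 chaperone, had 1336 CPM in WT.04, 515 in WT.41, 1930 in WT.42, 1057 in WT.59 and 719 in WT.60, against 382, 350, 207 and 369 CPM in WT.01, WT.02, WT.39 and WT.40. WT.41 fell within the range of the 24 (207 to 700 CPM), and the other 4 were above it. Its co-chaperone Ahsa1, which stimulates the Hsp90 ATPase, had 157 to 224 CPM in the raised tumours, against 70.3 to 115 CPM in the 4 and 52.1 to 160 CPM in the 24. The proteasome ATPase Psmc1 was at 1.03 on the log2 scale and the ubiquitin ligase Ubr7 at 0.97.

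The 14 genes of DNA repair and genome maintenance were likewise all positive, with a median of 0.96, beside the same 80% and 0.75 and again not matched by expression level. Rrm2, the small subunit of ribonucleotide reductase, had 195, 337, 135, 73.7 and 256 CPM in WT.04, WT.41, WT.42, WT.59 and WT.60, against 79.7, 62.2, 31.9 and 107 CPM in WT.01, WT.02, WT.39 and WT.40. WT.59 was within both other sets and the rest of the raised tumours were above all 24. Pole2, a subunit of DNA polymerase epsilon, was also low in WT.59, with 9.36 CPM there and 31.7 to 65.8 CPM in the other 4 raised tumours, against 10.8 to 24.3 CPM in the 4 Lynwt/wt tumours. The nuclear kinase Vrk1 was at 1.12. Some members of this list are no repair genes, such as Eml1, a microtubule-binding protein with a log2 fold change of 2.14.

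Other groups of chromosome 12 genes were closer to the chromosome's median or fell short of it. Of 13 lysosome and lipid genes 9 were positive (median 0.72), among them the SNARE protein Vti1b (1.14). Of 23 transcription factors 16 were positive (median 0.73), among them the corepressor Rcor1 at 1.13 and the nuclear receptors Esr2 at 4.31 and Esrrb at 4.60. Esr2 reached 8.57 CPM in WT.41 and 0.0729 to 1.93 CPM in the other raised tumours, against 0.0812 to 0.671 CPM in the 4. Esrrb, an orphan receptor, was listed at 0 in WT.04 and at 0.284 CPM in WT.59, with 8.58 to 10.7 CPM in WT.41, WT.42 and WT.60, against 0.198 to 0.496 CPM in the 4. Yy1, a zinc finger factor used in most tissues, had 178 to 264 CPM in the raised tumours, against 114 to 134 CPM in the 4, a log2 fold change of 0.81 against the 24.

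Among 5 NF-kB regulators 4 were positive and the median was 0.80, with Traf3, an adaptor that restrains the noncanonical pathway, at 0.80 and the apoptosis gene Siva1 at 0.99. Fos and Hif1a, picked after their values were seen, lie on the chromosome without a uniform difference. The immediate-early factor Fos had 69.1, 14.1, 98.9, 23.1 and 27.2 CPM in WT.04, WT.41, WT.42, WT.59 and WT.60, against 13.6 to 133 CPM in the 24. The hypoxia factor Hif1a had 147, 267, 341, 74.7 and 229 CPM in that order, against 51.9 to 295 CPM in the 24. Against the 24 the log2 fold change of Fos was -0.00099. That of Hif1a was 0.89, above the chromosome's median of 0.75.

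The imprinted Dlk1-Dio3 domain, whose genes are transcribed from 1 parental copy, did not share the raised level of its chromosome. All 5 of its measured genes were negative against the 24 and against the 4, with medians of -0.56 and -1.44. None of the 5 was called in either comparison. At an unadjusted edgeR p under 0.05, none was lower against the 24 and 3 were lower against the 4. Summed over the 5 genes, the raised tumours had 3.13 to 30.9 CPM (median 13.03). This lay within the range of the 24, 1.76 to 61.4 CPM (median 16.41). The 4 Lynwt/wt tumours had a median of 37.7 CPM and included the highest of the 24. The long noncoding RNA Meg3 had 3.79, 6.62, 1.70, 4.20 and 10.2 CPM in WT.04, WT.41, WT.42, WT.59 and WT.60, against 12.8, 6.23, 19.0 and 15.7 CPM in WT.01, WT.02, WT.39 and WT.40. Rian, another noncoding RNA of the domain, had 1.28 to 15.7 CPM in the raised tumours and 10.5 to 37.8 CPM in the 4. Dlk1, a Notch-related protein of fetal and stromal cells, had at most 1.49 CPM in the raised tumours and 0.851 to 4.17 CPM in the 4. Fibroblast markers, given further on, were also lower in the raised tumours, and their part in this was not tested. The Ifi27 family and its neighbours, interferon-induced genes in part, were at a median of 0.24 over 5 genes.

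Outside chromosome 12, 230 genes were called higher and 84 lower against the 24, of 19592 tested (1.17% higher). Without WT.04 the genes called higher were 362, and without WT.59 the genes called lower were 54. With Lyn genotype as a term, 4 higher and 47 lower calls were made, and 3 of the 230 and 17 of the 84 were among them. The fold change of that fit comes from the raised tumours against the 4 of their genotype. Tumours of the other genotypes enter it only through the scaling and the spread. Of these calls, 22 of the 230 (9.57%) and 23 of the 84 (27.4%) held when each raised tumour in turn was left out. Such a call did not rest on 1 tumour, but it need not be shared by all 5. Mlana, listed at 0 in WT.04, was among the 22. Among the 230, the highest of the 5 raised tumours was at least 5 times the next in 85 (37%), in WT.41 for 36, WT.42 for 16, WT.59 for 15, WT.04 for 14 and WT.60 for 4.

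Chac1, Zdhhc12 and Laptm4b were higher in every raised tumour than in all 24, the last pair being named after their values were seen. PCA group 3/4, outside the comparison, reached 32.0 CPM for Chac1 in HET.30, 29.9 for Zdhhc12 in HET.08 and 301 for Laptm4b in HOM.54. Chac1 on chromosome 2 (119351229 to 119354381), a glutathione-degrading enzyme induced by endoplasmic reticulum stress, had 12.8, 7.93, 11.6, 28.6 and 7.23 CPM in WT.04, WT.41, WT.42, WT.59 and WT.60, against 5.83, 3.39, 2.46 and 3.21 CPM in WT.01, WT.02, WT.39 and WT.40. The 24 ran from 1.53 through 2.99 to 6.46 CPM, and the log2 fold change was 1.91 ± 0.29 (edgeR adjusted p = 0.000142). Laptm4b on chromosome 15, a lysosomal membrane protein, had 124, 151, 124, 96.3 and 101 CPM in the raised tumours in that order, against 51.2, 68.8, 47.7 and 41.2 CPM in the 4. Its highest value among the 24 was 91.4 CPM, and the log2 fold change was 1.18 ± 0.20 (edgeR adjusted p = 0.000697). Zdhhc12 on chromosome 2, a protein palmitoyltransferase, had 14.3 to 33.9 CPM in the raised tumours, against 5.91 to 8.95 CPM in the 4 and at most 13.7 CPM in the 24, a log2 fold change of 1.29 ± 0.21 (edgeR adjusted p = 0.000437). With the genotype term Zdhhc12 kept its call, and Chac1 (1.84, edgeR adjusted p = 0.0649) and Laptm4b (1.16, edgeR adjusted p = 0.0786) lost theirs.

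Mlana, a melanosome protein of pigment cells, had the smallest p outside chromosome 12 (log2 fold change 8.09, edgeR adjusted p = 6.23e-06) and an uneven pattern. It was listed at 0 in WT.04 and had 76.8 CPM in WT.41, 0.556 in WT.42, 57.6 in WT.59 and 9.64 in WT.60, against at most 0.0912 CPM in the 4 and 0.431 CPM in the 24. Gm26752, a long noncoding RNA on chromosome 10, was called likewise, with 5.67 CPM in WT.04 and 0.071 in WT.41. It overlaps the start of Ppp1r14c on the other strand. Dpp7 and Ptgds, which lie close together on chromosome 2, a lysosomal dipeptidase and a prostaglandin D synthase, were both high in WT.41 and WT.42. Dpp7 had 168 CPM in WT.41 and 202 in WT.42, 4.17 to 15.7 CPM in the other raised tumours, against 8.04 to 21.0 CPM in the 4. Ptgds had 789 CPM in WT.41, 59.1 in WT.42, 41.1 in WT.59, 4.95 in WT.60 and 0.0365 in WT.04, against 0.0406 to 1.64 CPM in the 4. With the genotype term Mlana kept its call, and Gm26752, Dpp7 and Ptgds lost theirs (edgeR adjusted p = 0.132, 0.113 and 0.089).

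Other top calls were lost when 1 raised tumour was left out. Capns2, a calpain subunit, had 104 CPM in WT.41 and at most 0.908 CPM in the other raised tumours, against at most 0.846 CPM in the 24, and without WT.41 its log2 fold change was 1.103 (edgeR adjusted p = 0.444). Dnajc10, a disulfide reductase of the endoplasmic reticulum, had 3341 CPM in WT.41 and 148 to 341 CPM in the other raised tumours, against 77.2 to 188 CPM in the 24. Without WT.41 it was at 0.74 (edgeR adjusted p = 0.0679). Cel, a bile-salt-dependent lipase, had 74.1 CPM in WT.42 and at most 1.68 CPM in the other raised tumours, and without WT.42 it was at 1.37 (edgeR adjusted p = 0.369). The growth factor receptor Fgfr2 had 0.146, 31.8, 176, 0.606 and 23.8 CPM in WT.04, WT.41, WT.42, WT.59 and WT.60, against 2.99, 12.6, 1.71 and 6.18 CPM in WT.01, WT.02, WT.39 and WT.40. WT.41, WT.42 and WT.60 were above the highest of the 24, 17.6 CPM, and without WT.42 the call was lost at 1.70 (edgeR adjusted p = 0.289).

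WT.04 carried high values of neighbouring genes in a pair of windows, which were picked after seeing the data. Between 15 and 20 Mb of chromosome 6, WT.04 was the highest of the 29 tumours in 9 of the 10 genes that averaged at least 5 CPM over the 29, WT.04 included, at a median of 22.7 times the median tumour. Between 5 and 10 Mb of chromosome 9 it was highest in 12 of 16 such genes, at 7.11 times the median tumour. The first window holds Met, the hepatocyte growth factor receptor, with 4938 CPM in WT.04, 178 in WT.41, 110 in WT.42, 87.4 in WT.59 and 76.5 in WT.60, against 6.28, 167, 63.1 and 65.6 CPM in WT.01, WT.02, WT.39 and WT.40. WT.04 alone was above the 24, whose highest value was 805 CPM. Met was called against the 24 at 2.81 ± 0.65 (edgeR adjusted p = 0.00962), and without WT.04 it was at -0.39 (edgeR adjusted p = 0.801). Its neighbour Tes, a focal adhesion protein, had 5931 CPM in WT.04 and 88.2 to 337 CPM in the other raised tumours, and dropped to 0.69 without WT.04 (edgeR adjusted p = 0.304).

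The second window holds Yap1, a transcriptional coactivator of the Hippo pathway, and Birc2, an inhibitor of apoptosis. Yap1 had 1910 CPM in WT.04, 135 in WT.41, 179 in WT.42, 453 in WT.59 and 216 in WT.60, against 190, 266, 248 and 266 CPM in WT.01, WT.02, WT.39 and WT.40. WT.04 and WT.59 exceeded the highest of the 24, 289 CPM. Without WT.04 Yap1 was at 0.19 (edgeR adjusted p = 0.712) and Birc2 at 0.23 (edgeR adjusted p = 0.676), so neither call held without it. Of 20 mammary tumour driver genes outside chromosome 12, 4 were called higher, beside 1.17% of all genes tested outside it. These were Met, Yap1 and Birc2, which lost the call without WT.04, and Fgfr2, which lost it without WT.42. Fgfr1, another growth factor receptor, chosen after its values were seen, was called lower at -1.77 ± 0.49 (edgeR adjusted p = 0.0378), a call lost with the genotype term (edgeR adjusted p = 0.0753), with the autopsy year (0.0544), per animal (0.0751) and without WT.41, WT.42, WT.59 or WT.60 (0.0548 to 0.116). It had 364, 367, 21.9, 160 and 314 CPM in WT.04, WT.41, WT.42, WT.59 and WT.60, against 1069, 1063, 1449 and 893 CPM in WT.01, WT.02, WT.39 and WT.40, and 184 to 1972 CPM in the 24, so all 5 were below the 4 and WT.42 and WT.59 were below the 24.

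**Figure D5:**
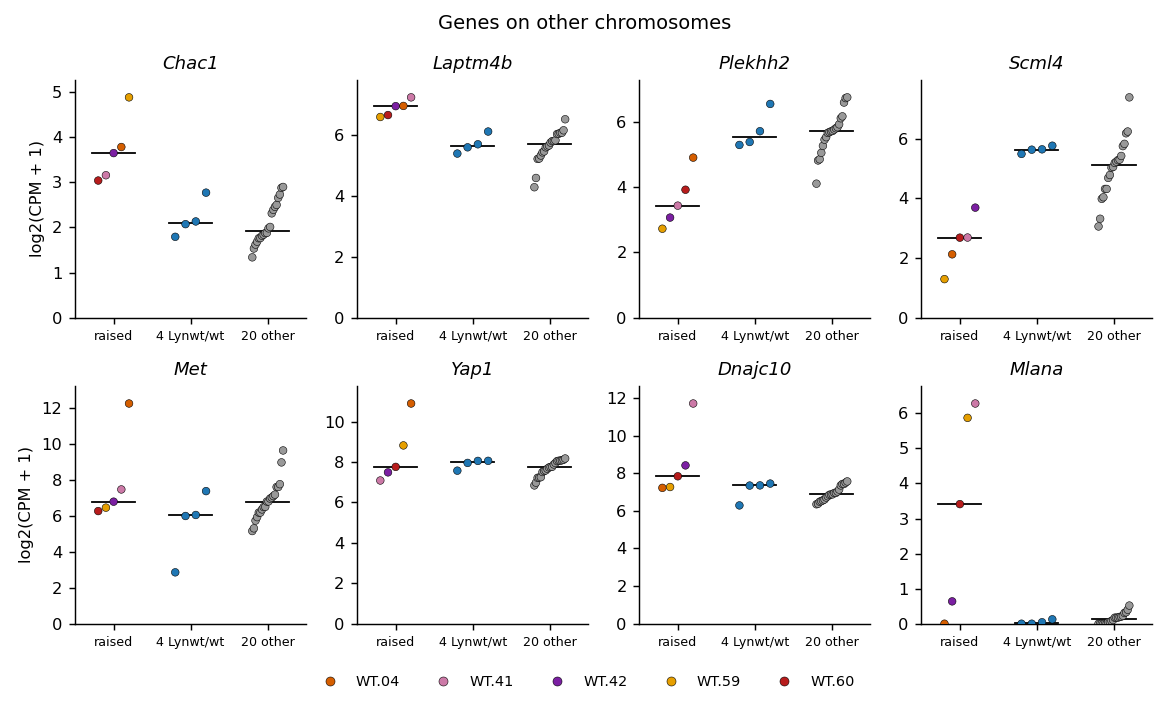
Expression of 8 genes outside chromosome 12 (vertical axis, log2 of CPM + 1) in the 5 raised tumours, the 4 other Lynwt/wt tumours and the 20 remaining PCA group 1/2 tumours (horizontal axis); points are tumours and black lines are medians. Chac1 and Laptm4b separate the raised tumours from the other tumours shown, and Plekhh2 and Scml4 are low in the raised tumours. In Met, Yap1 and Dnajc10 1 raised tumour stands far above the other 4.

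Lower calls included genes that were low in all or nearly all of the raised tumours. Plekhh2 on chromosome 17, a gene of the pleckstrin homology family, had 29.1, 9.81, 7.39, 5.62 and 14.2 CPM in WT.04, WT.41, WT.42, WT.59 and WT.60, against 51.7, 38.3, 93.1 and 40.9 CPM in WT.01, WT.02, WT.39 and WT.40. The 24 ran from 16.3 through 51.6 to 107 CPM, and WT.04 alone was within that range (log2 fold change -2.10 ± 0.38, edgeR adjusted p = 0.00122). Scml4 on chromosome 10, a Polycomb-family gene, had 3.35, 5.43, 11.9, 1.44 and 5.41 CPM in that order, against 44.0 to 53.4 CPM in the 4. It was at -2.95 ± 0.58 against the 24 (edgeR adjusted p = 0.00251), whose lowest value, 7.32 CPM, was below WT.42. Klf8, a zinc finger factor on the X chromosome, was the 1 gene for which every raised tumour was below all 24, with 0.106 to 0.284 CPM, against at least 0.319 CPM in the 24 (edgeR adjusted p = 0.0013, and 0.0581 with the genotype term, where the call was lost).

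Txnip, an inhibitor of thioredoxin and of glucose uptake, named after its values were seen, had 123, 178, 114, 101 and 75.5 CPM in WT.04, WT.41, WT.42, WT.59 and WT.60, against 332, 700, 656 and 394 CPM in WT.01, WT.02, WT.39 and WT.40. The 24 ran from 128 to 700 CPM, and WT.41 alone was within that range (log2 fold change -1.59 ± 0.34, edgeR adjusted p = 0.00517). The muscarinic receptor Chrm1 averaged 3.18 ± 2.30 CPM in the raised tumours and 76.7 ± 37.4 CPM in the 4 (SD, n = 5 and 4), and was at -3.69 against the 24 (edgeR adjusted p = 0.00331). Fkbp14, a prolyl isomerase of the endoplasmic reticulum, was at -1.59, the epoxide hydrolase Ephx1 at -2.10, Tspyl3 at -3.26 and Gprasp2, which binds G-protein-coupled receptors, at -4.31. The transporter gene Abcc12 had no count in any of the 5 raised tumours, and the 24 ran from 0 to 3.60 CPM with a median of 0.426.

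Against the 4 Lynwt/wt tumours edgeR called no gene higher (0%) and none lower (0%) of 18432 tested. Of the 17770 genes tested outside chromosome 12, 774 were higher and 1058 lower at an unadjusted edgeR p under 0.05, and DESeq2 called 133 higher and 412 lower. Without WT.01 edgeR called 41 genes lower there, and without WT.60 it called 1. Every raised tumour was above all 4 for 423 genes (2.29%), 189 of them on chromosome 12, by which the set was chosen. Of the 17770 genes elsewhere, every raised tumour was above all 4 for 234 (1.32%) and below all 4 for 370. These values share the raised tumours and the 4 reference tumours with the comparison against 24. In this comparison the log2 fold change of Chac1 was 1.88, of Zdhhc12 1.70, of Laptm4b 1.21, of Plekhh2 -2.06, of Scml4 -3.12 and of Txnip -2.12, each without overlap between the 5 and the 4.

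Groups of genes with roles linked to those on chromosome 12 held few calls. Of 25 proliferation genes none was called, 21 were positive and the median log2 fold change was 0.23 against the 24, with the mitotic survival gene Birc5 at 0.72 and the replication clamp Pcna at 0.58. Of 13 AP-1 and immediate-early genes outside the chromosome, none was called and the median was -0.52. Of 17 hypoxia and glycolysis genes (median -0.08), 15 NF-kB target genes (median -0.00) and 16 interferon-stimulated genes (median -0.27) none was called either. Of 15 MYC-linked ribosome biogenesis genes (median 0.06) none outside chromosome 12 was called, and Odc1, ornithine decarboxylase, which lies on it, was at 1.34. Over all genes outside chromosome 12 the median was -0.03. Against the 4 Lynwt/wt tumours the medians were 0.54 for the AP-1 list, 0.41 for hypoxia, 0.33 for NF-kB targets and 0.33 for interferon-stimulated genes. Proliferation genes were at 0.37 and ribosome biogenesis genes at 0.20 there, beside 0.09 outside chromosome 12, also without a call. The sign of the first 4 lists therefore depended on the reference tumours. The genes altered by design showed no call: Brca1 was at 0.50 ± 0.31 (edgeR adjusted p = 0.42), Trp53 at -0.02 ± 0.20 (edgeR adjusted p = 0.975) and Lyn at 0.19 ± 0.32 (edgeR adjusted p = 0.805).

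Marker lists of non-epithelial and of epithelial cells alike had negative median log2 fold changes in the raised tumours against the 24, salivary gland markers apart. The medians against the 24 were -6.52 over 9 skeletal muscle markers, -4.34 over 9 adipocyte markers, -2.66 over 12 B-cell and plasma-cell markers, -0.88 over 13 T-cell markers, -0.72 over 11 fibroblast markers, -0.40 over 9 endothelial markers and -0.27 over 12 macrophage markers. Of these, Mb, a muscle marker, and Pdgfra, a fibroblast receptor, were the genes called, both lower, at -2.26 and -1.82. Both calls were lost with the genotype term (edgeR adjusted p = 0.0726 for Mb and 0.144 for Pdgfra), that of Mb also without WT.04, WT.41, WT.59 or WT.60 (0.0633 to 0.105), and that of Pdgfra also per animal (0.068) and without WT.41, WT.42 or WT.59 (0.0731 to 0.0833). Some of the 24 had summed levels far above the rest, and the medians of the summed levels lay closer together than these folds. Summed muscle markers came to 2.01 to 14.1 CPM in the raised tumours (median 8.56), against 4.51 to 3547 CPM in the 4 and 3.39 to 3547 CPM in the 24 (median 23.0), and the muscle myosin Myh4 was listed at 0 in WT.04, WT.42 and WT.59. Summed adipocyte markers came to 7.48 to 28.5 CPM (median 18.5), against 29.6 to 319 CPM in the 4 and 6.21 to 1781 CPM in the 24 (median 46.2). Summed fibroblast markers came to 520 to 4316 CPM (median 2465), against 2149 to 9597 CPM in the 4 and 272 to 9597 CPM in the 24 (median 2687). Summed macrophage markers had a median of 1477 CPM in the raised tumours and 1443 CPM in the 24. Summed luminal markers came to 2479 to 6043 CPM, against 1869 to 4146 CPM in the 4 and 1869 to 8633 CPM in the 24. The median log2 fold change of 15 luminal markers was -0.30 against the 24 (4 positive) and 0.495 against the 4 (9 positive). Over 12 basal markers the median against the 24 was -0.89. The part of these markers in the gene differences above was not tested. Salivary gland markers were higher in places: Dcpp2 and Dcpp3, near-identical neighbours whose reads cannot be told apart with certainty, were called, with 30.4 and 47.5 CPM in WT.59 and no count in WT.04, and both calls were lost without WT.59 (edgeR adjusted p = 0.244 and 0.28) and with the genotype term.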

How the data were processed

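RNA of 39 tumours was sequenced as stranded poly(A) libraries. After fastp trimming, the authors used STAR 2.5.1b for alignment (GRCm38, no multimapping reads) and featureCounts 1.5.1 for counts per Gencode gene. These deposited raw counts were used. The authors' normalised values, fold changes and p-values were not used. Of counts from 1 to 10, 79.8% were even, so sampling error may exceed that of independent reads. Places came from Gencode vM21.

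Genes were tested with edgeR 4.0.16 (R 4.3.3; filterByExpr, TMM, glmQLFit, glmQLFTest). SE is the log2 fold change divided by the root of F. CPM are TMM-scaled; log2 CPM used a prior count of 2. Tumours of 1 mouse counted separately. Alternatives were DESeq2 1.42.0, other normalisations and filters, genotype or autopsy year as a term, counts per animal, and leaving out tumours. Scripts were tested on simulated data.

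The members and lists were chosen with earlier results of these data known. Named genes were the 3 markers, the 10 chromosome 12 genes of smallest p, up to 10 called genes outside it per direction, up to 4 genes per list, Brca1, Trp53 and Lyn. One library per tumour was made, and p-values measure the spread between tumours.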

Additional observations from a re-analysis of the deposited data

Results flagged for a closer look

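Among 141 groups of 4 or 5 tumours tested for a value far from the rest by the gap-to-range ratio, 23 had one, and 17 were in the raised set. Chance gives about 1 in 20 of groups, but many of these genes were named for their values in the raised tumours, so the number cannot be set against it. The limits were 0.71 for 5 tumours and 0.829 for 4.

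WT.41 stood apart in Capns2 (0.994), Dnajc10 (0.94), Ptgds (0.925) and Esr2 (0.781). WT.42 stood apart in Cel (0.978), Fgfr2 (0.82), RP23-43G12.1 (0.776), Rcor1 (0.724) and, among low values, Ephx1 (0.72). WT.04 stood apart in Met (0.979), Tes (0.957), Yap1 (0.821), Birc2 (0.767) and Gm26752 (0.745). WT.59 stood apart in Dcpp2 (0.812), Dcpp3 (0.798) and Chac1 (0.74). In the 4 other Lynwt/wt tumours the ratios were 0.918 for Odc1 in WT.01, 0.911 for Tes and 0.889 for Esr2 in WT.40, and 0.884 for Zdhhc12, 0.88 for Ephx1 and 0.872 for Dnajc10 in WT.02.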

How the results depend on the processing

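Of the 5 raised tumours, 4 passed the shift limit, 2 with the mean over genes, 2 with library-size CPM and 0 without a low-count filter, where genes without counts set the median. Outside chromosome 12 against the 24 (230 higher, 84 lower), higher calls were 1024 without a filter, 4 with the genotype term and 149 with the autopsy year, and lower calls were 559 with DESeq2, 47 with the genotype term and 52 per animal. Leaving out 1 raised tumour gave 173 to 362 higher and 54 to 101 lower calls. Against the 4 (0 and 0), DESeq2 called 133 higher and 412 lower, and lower calls were 1 without a filter, 2 per animal and 0 to 41 with 1 tumour left out. With the mean over genes 5 other chromosomes passed against the 24. The cause of these changes was not tested.

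Some values turned sign, all uncalled save Met. Against the 24, Trp53 was 0.0039 with DESeq2, 0.0037 with RLE, 0.037 with TMM without chromosome 12, 0.0018 without a filter, 0.0080 with a 1 CPM filter, 0.10 with the genotype term, 0.047 with the year and -0.15 to 0.13 with 1 tumour left out, Brca1 was -0.033 with the genotype term, and Met was -0.39 without WT.04 and up to 3.16 without another. Against the 4, Brca1 was -0.0075 with DESeq2 and with RLE, -0.036 without a filter, -0.034 with a 1 CPM filter, -0.035 per animal and -0.30 to 0.23 with 1 tumour left out. No paired analysis was possible because replicate numbers are unique to each tumour, and the sets share only the mouse of WT.04 and WT.02, a single pair. With 5 tumours from 4 mice, differences carried by some raised tumours are poorly resolved.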

Other observations

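HET.30, of PCA group 3/4 and outside both comparisons, had a chromosome 12 shift of 0.305, with 65.3% of its chromosome 12 genes above the median tumour. Genes called higher against the 24 in every fit that left out 1 raised tumour included neighbours, picked here after their values were seen. Notum, a secreted Wnt inhibitor on chromosome 11, averaged 30.3 ± 32.8 CPM in the raised tumours and 2.35 ± 3.53 CPM in the 24 (SD, n = 5 and 24), and Notumos (log2 fold change 4.19) and Myadml2os (4.45), which overlap it on the other strand, were called with it. Uap1l1, next to Dpp7 on chromosome 2, averaged 110 ± 60.2 CPM in the raised tumours and 35.7 ± 17.2 CPM in the 24. Of the 230 higher calls, 47 were among 1536 genes tested on chromosome 2, 26 among 1126 on chromosome 6 and 20 among 1558 on chromosome 7. The share over all 19592 genes outside chromosome 12 was 1.17%, and chromosome 7 was near it. On chromosome 6, 10 of the calls lay between 15 and 20 Mb, in the window where WT.04 was high.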
